A study of Homo sapiens with 12 samples.

Results

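The genes described here are 10 myeloid surface markers and cytokine receptors, taken from the expression table by gene symbol, out of 58233 genes listed there. They are the cytokine receptors CSF3R, CSF2RB, IL6R and TNFRSF1B, the receptor tyrosine kinases CSF1R, KIT and FLT3, and the surface markers CD33, CD14 and CD44. All 10 had a row of their own, and 6 of them passed the filter used for testing, which asked for at least 5 RPKM (reads normalised for gene length and library size) in at least 3 libraries. The 4 genes below the filter were CD44, CSF1R, KIT and CD14, and their values are given without a test.

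RNA was sequenced from HL-60, a permanent line of blast-like human acute myeloid leukaemia cells, labelled wild type and grown in RPMI with 10% FCS. Cells were left untreated, or received for 3 h 100 nM ATRA (all-trans retinoic acid, the ligand of the retinoic acid receptors), 500 nM palbociclib (an inhibitor of the cyclin-dependent kinases CDK4 and CDK6), or both. Each of the 4 groups had 3 libraries, the study's question was what the drugs do to transcription alone and together, and no vehicle is named for the untreated cells. The study describes its data in general as coming from independent experiments, but neither the labels nor the sequencing methods say whether the 3 libraries of a group were separate cultures, so the p-values measure the spread between these libraries of a single cell line.

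Cytokine receptors of the haematopoietic type have no kinase of their own and signal through JAK kinases and STAT factors, whereas KIT, FLT3 and CSF1R carry a kinase domain, and TNFRSF1B (TNF receptor 2) recruits TRAF adaptors. CSF3R binds G-CSF and carries the signal for neutrophil production, and CSF2RB is the beta chain shared by the receptors for GM-CSF, IL-3 and IL-5. CD33 marks cells committed to the myeloid lineage, CD14 is an LPS co-receptor of monocytes, and CD44 is a hyaluronan receptor on many blood cells.

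The 2 receptor genes that passed the test, TNFRSF1B and CSF3R, rose with ATRA, while IL6R had lower means with ATRA but overlapping libraries, and passed the threshold of 0.001 with a block for replicate number but not without it. To set these genes in the genome, their promoter windows from RefSeq (GRCh38.p14) are printed from 250 bases before to 50 bases after the annotated start. TNFRSF1B spans positions 12166991 to 12209228 of chromosome 1 (plus strand), CSF3R spans 36466043 to 36483278 of chromosome 1 (minus strand), and IL6R spans 154405193 to 154469450 of chromosome 1 (plus strand), all protein coding in GENCODE v44. Capitals mark matches, on either strand, to 3 short motifs. These were AGGTCA (the core hexamer of nuclear receptor elements such as those of retinoic acid receptors), GAGGAA (the core bound by the myeloid factor encoded by SPI1) and TTGCNNAA (C/EBP factors). Windows are given 5′ to 3′ on the strand of the gene.
TNFRSF1B, chr1:12166741-12167040, plus strand: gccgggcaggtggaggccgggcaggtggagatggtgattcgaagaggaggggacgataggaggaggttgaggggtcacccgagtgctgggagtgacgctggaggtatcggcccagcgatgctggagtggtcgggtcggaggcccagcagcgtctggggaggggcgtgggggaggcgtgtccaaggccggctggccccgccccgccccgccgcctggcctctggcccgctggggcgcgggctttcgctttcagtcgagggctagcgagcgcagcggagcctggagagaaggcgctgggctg
CSF3R, chr1:36483265-36483564, minus strand: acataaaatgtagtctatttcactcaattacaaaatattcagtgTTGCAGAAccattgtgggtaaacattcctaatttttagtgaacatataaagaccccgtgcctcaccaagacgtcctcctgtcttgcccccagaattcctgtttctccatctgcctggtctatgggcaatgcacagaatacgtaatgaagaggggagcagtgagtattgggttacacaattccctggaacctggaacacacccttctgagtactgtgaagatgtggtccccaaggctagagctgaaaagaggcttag
CSF3R, chr1:36482864-36483163, minus strand: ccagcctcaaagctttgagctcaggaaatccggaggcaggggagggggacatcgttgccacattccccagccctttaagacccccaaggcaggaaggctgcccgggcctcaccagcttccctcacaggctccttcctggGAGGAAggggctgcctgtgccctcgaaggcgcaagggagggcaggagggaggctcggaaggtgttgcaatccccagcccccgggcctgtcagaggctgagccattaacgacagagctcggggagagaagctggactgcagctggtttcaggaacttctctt
IL6R, chr1:154405093-154405392, plus strand: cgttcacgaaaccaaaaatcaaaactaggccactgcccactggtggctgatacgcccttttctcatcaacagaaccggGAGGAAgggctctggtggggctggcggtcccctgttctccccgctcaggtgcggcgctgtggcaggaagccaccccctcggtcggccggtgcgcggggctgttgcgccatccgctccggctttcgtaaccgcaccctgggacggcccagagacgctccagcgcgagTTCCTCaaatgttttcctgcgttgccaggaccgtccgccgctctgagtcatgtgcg

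None of the 3 motifs had a match in the TNFRSF1B window. The CSF3R window that starts farther upstream held TTGCAGAA at positions 45 to 52 counted from its first base, and the other held GAGGAA at positions 140 to 145. The IL6R window held GAGGAA at positions 79 to 84 and its reverse complement TTCCTC at 245 to 250. These letters are common: among 35116 promoter windows of the same length, 13.8% held AGGTCA, 27.9% held GAGGAA and 10.5% held TTGCNNAA, counting both strands. AGGTCA occurred in the window of CD44 alone among the 9 genes of the group that had a window, and CSF2RB had none in the table. A match describes the letters only.

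Both drugs had acted on genes commonly used to follow them. HIC1, a transcriptional repressor gene and retinoid target, was listed at 0 in each library without ATRA, at 8, 11 and 10 RPKM with ATRA, and at 8, 12 and 9 RPKM with the combination. DHRS3, which encodes a retinaldehyde reductase, was at 0 to 1 RPKM without ATRA and at 40 to 50 RPKM with it, whereas CYP26A1 and RARB were listed at 0 in all 12 libraries. CCNE1 (cyclin E1) was at 13 to 15 RPKM in untreated cells and at 5 RPKM in each palbociclib library. However, it was also at 9, 8 and 8 RPKM with ATRA and called lower in the ATRA main effect. That ATRA call was lost in 9 of the 12 fits that left out a library (adjusted p up to 0.0016, limma). In all, 3 of 4 cell cycle genes used as a check, CCNE1 among them, were called lower in the palbociclib main effect, beside 0.563% of all tested genes. Of 8 markers of HL-60 and its lineage, MPO was at 1077 to 1579 RPKM and ELANE at 0 to 1, and the 8 summed to 1652 to 1885 RPKM in untreated, 1534 to 1726 in ATRA, 1822 to 2054 in palbociclib and 1558 to 1808 in combination libraries. MPO makes up most of these sums. Of the 7 tested, SPI1 and CEBPA were called higher and MYB lower in the ATRA main effect, beside 4.68% and 4.94% of all tested genes. SPI1 lost its call in 4 of the 12 fits that left out a library. Markers of T cells, erythroid cells, megakaryocytes and fibroblasts, 4 each, were listed at 0 in every library. Of 4 B cell markers only CD79A was above 0, at 1 RPKM in each library with ATRA. These are bulk libraries, in which fewer cells of a type and less RNA per cell cannot be told apart.

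In untreated cells the levels per gene length formed an order in the rounded values. IL6R was highest at 97 ± 7.0 RPKM (SD, n = 3) and lay above 93.8% of the 7820 tested genes, followed by TNFRSF1B at 40.3 ± 4.04 RPKM, above 82.8% of them. FLT3 followed with 10 to 13 RPKM, CD33 with 7 to 8, CSF2RB with 6 in each library and CSF3R with 4 in each library. CD44 was at 1 to 2 RPKM, and CSF1R, KIT and CD14 were listed at 0. No neighbours in this order overlapped, apart from the 3 genes at 0. The lowest CD33 value (7) and the CSF2RB value (6) are adjacent whole numbers, as are the lowest of CD44 (1) and 0. The order changed with ATRA: TNFRSF1B (66 to 90 RPKM) then lay within the span of IL6R (69 to 90) but for its lowest library, and CSF3R (8 to 14) overlapped FLT3 (11 to 13).

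**Figure D1:**
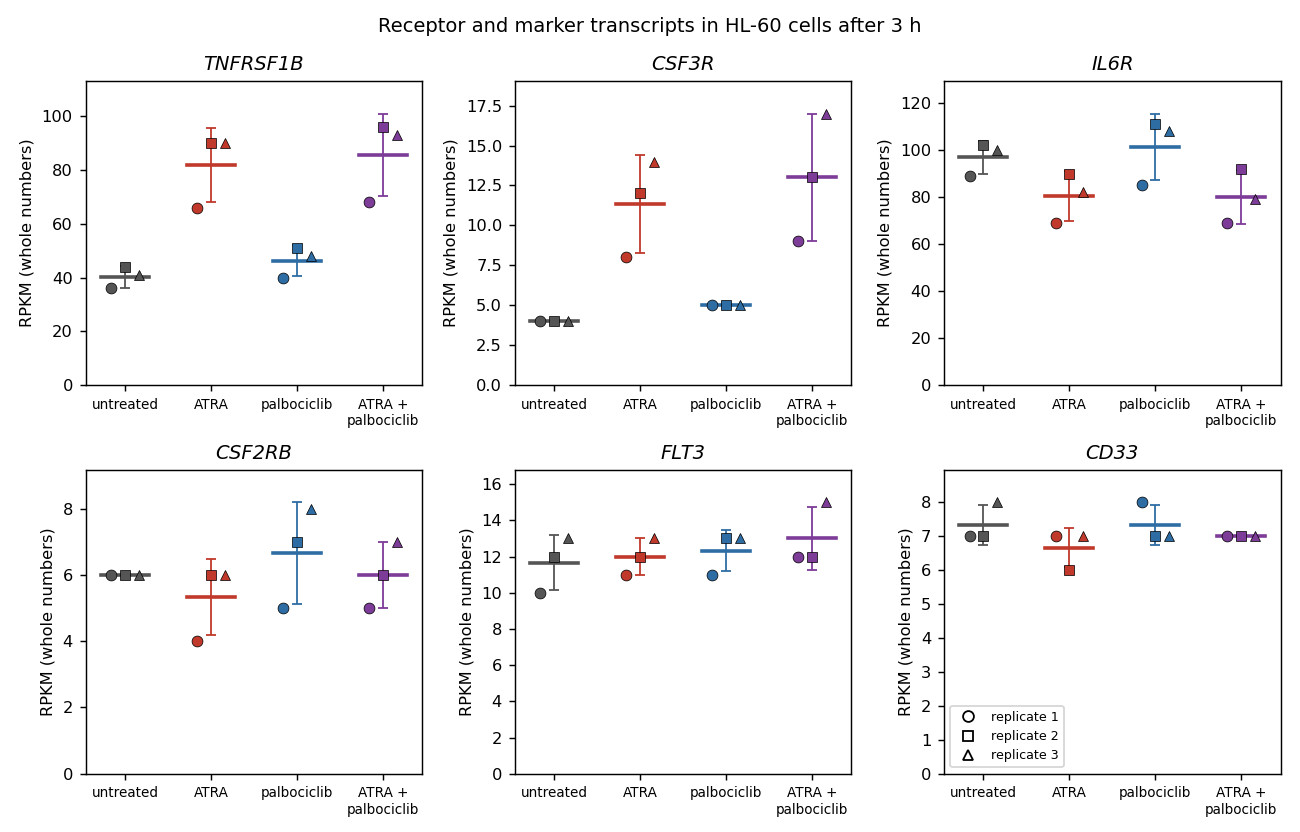
RPKM (whole numbers, linear axis from 0, a separate scale in each panel) of the 6 tested genes in the 4 groups; each point is a library, its shape gives the replicate number, the horizontal line is the mean and the bar is the SD (n = 3). TNFRSF1B stayed at or below 51 RPKM in the 6 libraries without ATRA and at or above 66 in the 6 with it, CSF3R stayed at 4 to 5 against 8 to 17, and the other 4 genes overlapped between libraries with and without ATRA.

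TNFRSF1B, the receptor for TNF found mainly on blood and endothelial cells, was at 36, 44 and 41 RPKM in untreated replicates 1, 2 and 3 and at 66, 90 and 90 RPKM with ATRA. It was at 40, 51 and 48 RPKM with palbociclib and at 68, 96 and 93 RPKM with the combination. The 6 libraries with ATRA did not overlap the 6 without it, which held for 5.43% of tested genes in the same direction. The ATRA main effect, which averages the effect of ATRA without and with palbociclib over 6 against 6 libraries, was 0.94 on the log2 scale (SE 0.11, adjusted p = 0.000117, limma) and passed the threshold of 0.001. Over the alternatives of the processing its adjusted p lay between 4.35e-07 and 0.000756. A larger increase was seen in 163 of the 7820 tested genes.

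CSF3R, the G-CSF receptor, showed a larger fold from a lower level. It was at 4 RPKM in each untreated library, at 8, 12 and 14 RPKM with ATRA, at 5 RPKM in each palbociclib library, and at 9, 13 and 17 RPKM with the combination. All libraries with ATRA lay above all libraries without it, and within the ATRA and combination groups replicate 1 was the lowest and replicate 3 the highest. The ATRA main effect was 1.38 (log2 fold change, SE 0.16, adjusted p = 8.12e-05) and stayed called in the alternatives, with adjusted p between 3.19e-05 and 0.000543. CSF3R passed the filter through treated libraries, since the untreated values were below 5. Rounding left no spread between the untreated values of CSF3R, nor between those with palbociclib, so its p-values do not include the rounding error. The deposited values are whole numbers, so the ratio of means of ATRA to untreated, 2.83, could lie between 2.41 and 3.38 before rounding.

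Across the 6 tested genes of the group, the ATRA main effect was called for 2, both higher, against 9.62% of all tested genes in either direction, 4.68% in the higher and 4.94% in the lower direction. The median over the 6 was -0.02 on the log2 scale, beside -0.01 over all tested genes.

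The single comparisons gave the same direction for both genes, with calls that depended on the fit. Against untreated cells ATRA gave log2 fold changes of 1.01 for TNFRSF1B (SE 0.16, adjusted p = 0.00134) and 1.44 for CSF3R (SE 0.22, adjusted p = 0.00113), both short of the threshold, which 4.72% of tested genes passed. With a block for replicate number, these changes had adjusted p = 4.85e-06 and 0.000441, and 9.23% of tested genes passed. However, same-numbered untreated and ATRA libraries deviated together only weakly (r 0.155, 0.367 and 0.088 for replicates 1, 2 and 3). The combination against untreated gave 1.07 for TNFRSF1B (SE 0.16, adjusted p = 0.000613) and 1.63 for CSF3R (SE 0.22, adjusted p = 0.000338), both called, as were 8.04% of tested genes. Without each of the 3 untreated libraries in turn, and without combination replicate 2 or 3, neither gene was called there. When libraries were left out 1 at a time the adjusted p of TNFRSF1B ranged from 0.000336 to 0.00473 and that of CSF3R from 0.000139 to 0.00254.

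Adding ATRA to palbociclib gave higher values of both receptors, by 0.88 for TNFRSF1B (log2 fold change, SE 0.16, adjusted p = 0.00444) and 1.31 for CSF3R (SE 0.22, adjusted p = 0.00275), neither past the threshold, which 3.11% of tested genes passed. With the replicate block, adjusted p was 1.25e-05 and 0.000959, both called, beside 6.15% of tested genes. Same-numbered treated libraries deviated together from their group means, as given with the methods, so this block bears directly on the comparison of treated groups. In a block fit of the 9 treated libraries alone, chosen after seeing the data, 1 of the 6 genes was called, beside 5.26% of tested genes.

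A threshold of 0.05 in place of 0.001 called these 2 receptors for ATRA against untreated (20.3% of tested genes), the combination against untreated (30.4%) and the combination against palbociclib (12.5%), and called IL6R besides them in the ATRA main effect (28.4%). With the block as well, IL6R joined them in each of the 3 single comparisons (35.4%, 45.2% and 23.5% of tested genes), and TNFRSF1B was called for palbociclib against untreated (13.6%).

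**Figure D2:**
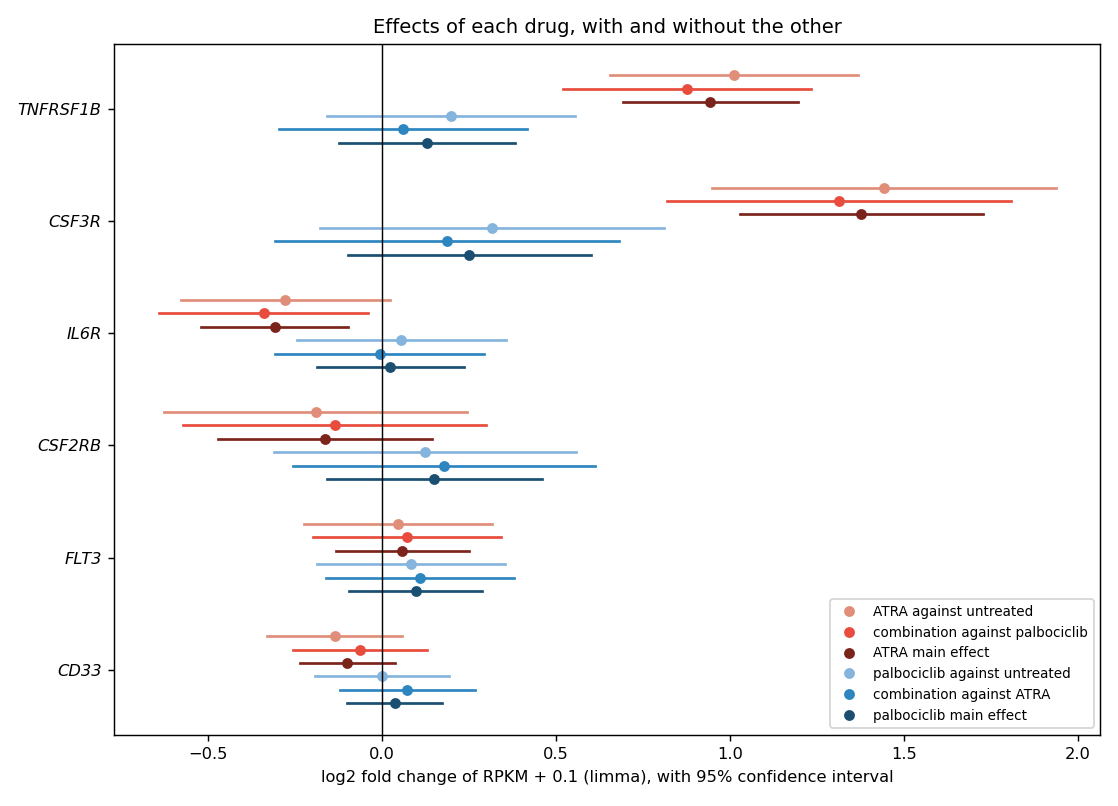
Log2 fold change of RPKM + 0.1 with its 95% confidence interval (limma, horizontal axis) for the 6 tested genes; red tones are the effects of ATRA (without palbociclib, with palbociclib, and averaged) and blue tones the effects of palbociclib (without ATRA, with ATRA, and averaged). In this fit, without a block for replicate number, the intervals of the ATRA effects lie above 0 for TNFRSF1B and CSF3R, from 0.52 upwards. The intervals of all palbociclib effects of all 6 genes include 0. With the block, not drawn, the TNFRSF1B intervals of palbociclib against untreated and of the palbociclib main effect lie above 0.

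IL6R, the alpha chain of the IL-6 receptor, had lower means with ATRA, by a smaller amount. It was at 89, 102 and 100 RPKM in untreated libraries, at 69, 90 and 82 RPKM with ATRA, at 85, 111 and 108 RPKM with palbociclib and at 69, 92 and 79 RPKM with the combination. The libraries with and without ATRA overlapped (69 to 92 against 85 to 111 RPKM), but within replicate numbers the library with ATRA was the lower in 6 of 6 pairs, which held for 15.3% of tested genes. Of these pairs 3 include an untreated library, and same-numbered untreated and treated libraries deviated together only weakly (r 0.0453 to 0.367). The replicate block spans the untreated libraries too. The ATRA main effect was -0.31 (log2 fold change, SE 0.096, 95% confidence interval -0.52 to -0.10, adjusted p = 0.0338) and was not called at 0.001. With the replicate block it was called (adjusted p = 0.000194), as were 8.84% of tested genes in the lower direction. Over the alternatives its adjusted p ranged from 0.000194 to 0.0840, always with a negative sign.

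Replicate 1 was the lowest library of its group for TNFRSF1B and for IL6R in all 4 groups. The ratio of the 2 genes within a library, computed after these values had been seen and given without a test, was therefore tighter than either level. TNFRSF1B over IL6R was 0.404, 0.431 and 0.410 in untreated libraries and 0.471, 0.459 and 0.444 with palbociclib. It was 0.957, 1.00 and 1.10 with ATRA and 0.986, 1.04 and 1.18 with the combination. Libraries with ATRA thus had about equal levels of the 2 transcripts per gene length, and libraries without it had less TNFRSF1B than IL6R.

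**Figure D3:**
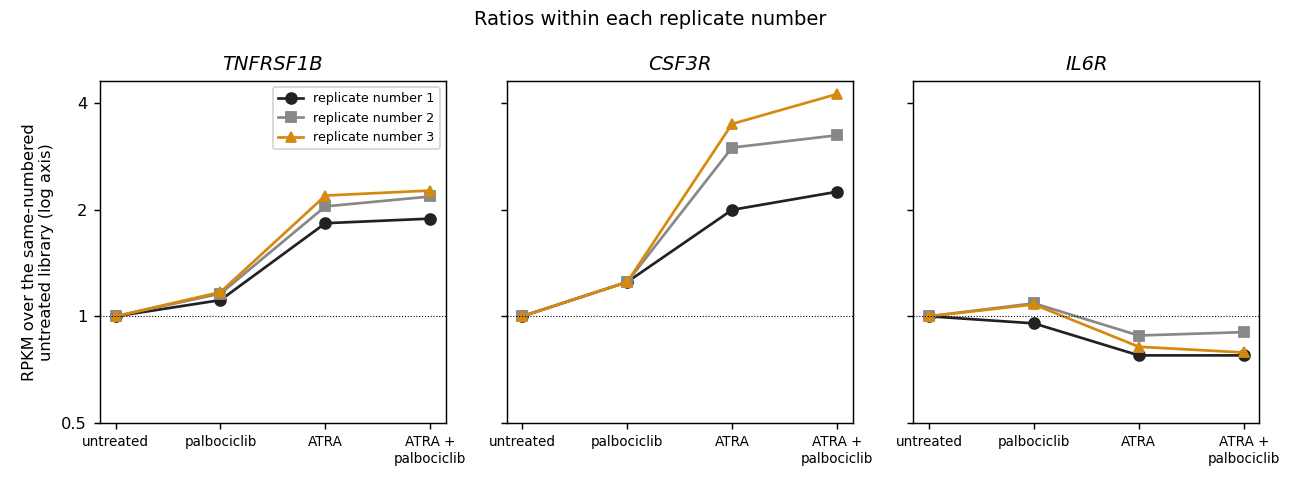
RPKM of TNFRSF1B, CSF3R and IL6R in each treated library divided by the untreated library of the same replicate number (vertical log axis), for palbociclib, ATRA and the combination; each line joins 1 replicate number. With ATRA the ratios were 1.83, 2.05 and 2.20 for TNFRSF1B and 2.0, 3.0 and 3.5 for CSF3R, and with the combination they were 1.89, 2.18 and 2.27 and 2.25, 3.25 and 4.25, while those of IL6R with ATRA or the combination lay below 1.

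No effect of palbociclib on the 6 tested genes passed the threshold. Its main effect was called for 0 of them (limma; 0 also at an unadjusted p under 0.05), beside 0.575% of all tested genes, and palbociclib against untreated likewise called 0 of them, beside 0.499%. The main effect was 0.13 for TNFRSF1B (95% confidence interval -0.12 to 0.38, adjusted p = 0.659) and 0.25 for CSF3R (-0.10 to 0.60, adjusted p = 0.501) on the log2 scale. Both genes were nonetheless higher with palbociclib in 6 of 6 same-numbered pairs, which held for 5.18% of tested genes. Of these pairs 3 include an untreated library. For CSF3R most of the steps were of 1 RPKM, the unit of rounding. With the replicate block 1 of the 6 genes, TNFRSF1B, had an unadjusted p under 0.05 for the palbociclib main effect (limma). Its 95% confidence interval was then 0.04 to 0.22 (adjusted p = 0.0625), and 0.07 to 0.32 for palbociclib against untreated (adjusted p = 0.0464). Both adjusted p-values were above the threshold of 0.001. All 6 genes had positive estimates, from 0.02 to 0.25, against 50.8% of all tested genes.

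Adding palbociclib to ATRA gave 0.06 for TNFRSF1B (log2 fold change, 95% confidence interval -0.30 to 0.42) and 0.19 for CSF3R (-0.31 to 0.68). Changes within these intervals could not be told from 0 in the fit without a block. The departure from additivity, the effect of palbociclib with ATRA minus that without it, was -0.14 for TNFRSF1B (-0.64 to 0.37) and -0.13 for CSF3R (-0.83 to 0.57). No gene among all 7820 was called in either comparison with limma (0%), where 287 and 236 genes had an unadjusted p under 0.05, none of them among the 6. The replicate block narrowed the intervals of adding palbociclib to ATRA to -0.06 to 0.19 for TNFRSF1B and -0.22 to 0.59 for CSF3R. It again called no gene in either comparison, and 643 and 624 genes had an unadjusted p under 0.05, none among the 6. The block fit of the 9 treated libraries called no gene for the combination against ATRA. There 1287 genes, 1 of the 6 among them, had an unadjusted p under 0.05.

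CSF2RB, FLT3 and CD33 were not called in any comparison, and their groups overlapped. CSF2RB, on chromosome 22 (36913628 to 36940439), was at 6 RPKM in each untreated library, at 4, 6 and 6 with ATRA, at 5, 7 and 8 with palbociclib and at 5, 6 and 7 with the combination. Its ATRA main effect was -0.16 (log2 fold change, 95% confidence interval -0.47 to 0.14, adjusted p = 0.427). The range of CSF2RB in each treated group reached or included the untreated value.

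FLT3, the receptor tyrosine kinase that is often mutated in acute myeloid leukaemia, lies on chromosome 13 (28003274 to 28100592). It was at 10, 12 and 13 RPKM in untreated libraries, at 11, 12 and 13 with ATRA, at 11, 13 and 13 with palbociclib and at 12, 12 and 15 with the combination. Its ATRA main effect was 0.06 (95% confidence interval -0.13 to 0.25, adjusted p = 0.665) and its palbociclib main effect was 0.10 (-0.09 to 0.29, adjusted p = 0.664). KIT, the stem cell factor receptor (chromosome 4, 54657267 to 54740783), was listed at 0 in all 12 libraries. CSF1R, the M-CSF receptor of monocytes (chromosome 5, 150053291 to 150113372), was listed at 0 in 11 of them and at 1 RPKM in combination replicate 3.

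CD33, a sialic acid binding lectin on chromosome 19 (51225064 to 51243860), was at 7, 7 and 8 RPKM in untreated libraries, at 7, 6 and 7 with ATRA, at 8, 7 and 7 with palbociclib and at 7 in each combination library. Its ATRA main effect was -0.10 (log2 fold change, 95% confidence interval -0.24 to 0.04, adjusted p = 0.267). CD14, on chromosome 5 (140631728 to 140633700), was listed at 0 in all 12 libraries. CD44, on chromosome 11 (35138882 to 35232402), was at 2, 1 and 1 RPKM in untreated libraries, at 2 in each ATRA library, at 2, 1 and 2 with palbociclib and at 2 in each combination library. A fit with a filter at 1 RPKM gave 0.47 for the ATRA main effect of CD44 (SE 0.21, adjusted p = 0.175). At values this low, steps of 1 RPKM are the smallest the table can show.

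Reads shared with other genes could touch few of these values. In GENCODE v44, 48 of 3778 exonic bases of TNFRSF1B (1.27%) are shared with MIR7846 on the same strand, 154 of 9992 of CD44 (1.54%) with CD44-AS1 and CD44-DT on the opposite strand, and none of the other 8 genes.

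The other genes of these pathways were taken as lists. Of 36 other haematopoietic cytokine receptors, 13 were tested, and the ATRA main effect was called higher for 5 and lower for 1, beside 4.68% and 4.94% of all tested genes, with a median of 0.36 on the log2 scale against -0.01 over all tested genes. IFNAR2, a chain of the type I interferon receptor, was at 4 RPKM in each untreated library and at 7, 8 and 8 with ATRA (main effect 0.88, SE 0.077, adjusted p = 1.09e-05). EPOR, the erythropoietin receptor, was at 3, 4 and 3 RPKM and at 5, 6 and 6 with ATRA (0.73, adjusted p = 0.000311). IL10RB, a chain shared by receptors of the IL-10 family, was at 5, 7 and 7 RPKM and at 9, 11 and 11 with ATRA (0.70, adjusted p = 0.000279). TGFBR1, the type I receptor of TGF-beta, was at 11, 11 and 10 RPKM and at 6 in each ATRA library, lower by a main effect of -0.79 (adjusted p = 3.29e-06). CSF2RA, the alpha chain that pairs with CSF2RB for GM-CSF, is named for that pairing after its values were seen: it was at 3 RPKM in each untreated library and at 5 in each ATRA and combination library (0.58, adjusted p = 0.000210). Rounding left no spread between the untreated values of CSF2RA and of IFNAR2, so their p-values do not include the rounding error. Of the 5 that rose, CSF2RA, EPOR and IFNAR2 passed the filter only through libraries with ATRA, so the counts and the median of this list are partly set by the filter. In the 12 fits that each left out a library, EPOR lost its call in 6 (adjusted p up to 0.00143), IL10RB in 7 (up to 0.00134) and IFNGR1 in 3 (up to 0.00121). With no filter 3 were called higher and 1 lower of 22 tested, beside 432 higher and 431 lower of all 15220 genes tested there.

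IL6ST, the signalling chain that works with IL6R, was at 1 RPKM in all 12 libraries and was not tested. TNFRSF1A, the other TNF receptor, was at 19, 24 and 20 RPKM in untreated libraries, at 23, 26 and 23 with ATRA, 26, 29 and 25 with palbociclib and 23, 26 and 22 with the combination. Its ATRA main effect, an average of 0.20 without palbociclib and -0.17 with it, was 0.01 (log2 fold change, adjusted p = 0.924). Both were named after their values had been seen. Of 12 ligands of these receptors, 9 were listed at 0 in all libraries and only TNF was tested. TNF, the ligand of TNFRSF1B, was at 52, 53 and 62 RPKM in untreated libraries, at 94, 86 and 98 with ATRA, at 61, 70 and 81 with palbociclib and at 87, 83 and 99 with the combination (ATRA main effect 0.54, SE 0.079, adjusted p = 0.000416). Its libraries with ATRA all lay above those without, and it lost its call in 7 of the 12 fits that left out a library (adjusted p up to 0.00203).

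Of 56 other myeloid surface molecules, 20 were tested, and with ATRA 8 were called higher and 4 lower (median 0.17), beside 4.68% and 4.94% of all tested genes. CD38, an ADP-ribosyl cyclase known as a retinoid target, was at 3, 2 and 2 RPKM in untreated libraries and at 13, 17 and 20 with ATRA (main effect 2.74, SE 0.16, adjusted p = 4.31e-07). The chemokine receptor gene CCR1 was at 4 RPKM in each untreated library and at 16, 25 and 24 with ATRA (2.41, adjusted p = 2.65e-06), and CCR2 was at 15, 19 and 19 RPKM and at 44, 63 and 64 (1.62, adjusted p = 1.24e-05). CD300A, an inhibitory receptor, was at 2, 3 and 3 RPKM and at 8, 16 and 17 with ATRA (2.36, adjusted p = 4.34e-05). The 4 that were called lower, named after their values were seen, were TLR2 (-0.94), CLEC12A (-0.75), CD47 (-0.74) and FCGR1A (-0.43), and FCGR1A lost its call in 10 of the 12 fits that left out a library (adjusted p up to 0.00291). Of the 8 that were higher, CD38, CD300A, CD300LF and CCR1 passed the filter only through libraries with ATRA. The counts and the median of this list are therefore partly set by the filter. CD300LF and ADGRE5, also among the 8, each lost their call in 9 of the 12 fits that left out a library (adjusted p up to 0.00212 and 0.00248).

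Of 38 signalling partners of the cytokine receptors, 23 were tested, and with ATRA 4 were called higher and none lower (median 0.03), beside 4.68% and 4.94% of all tested genes. With a filter at 1 RPKM or none, 35 were tested, of which 7 were called higher and 1 lower. Among all genes tested with the filter at 1 RPKM, 437 were called higher and 441 lower of 14003. With no filter these were 432 and 431 of 15220. SH2B3, an adaptor that restrains JAK2 signalling, was at 14, 14 and 13 RPKM in untreated libraries and at 33, 39 and 37 with ATRA (main effect 1.31, SE 0.063, adjusted p = 1.19e-07). TYK2, a JAK family kinase, was at 11, 11 and 10 RPKM and at 15, 19 and 19 with ATRA (0.66, adjusted p = 0.000134). PTPN6, the phosphatase SHP-1, was at 45, 49 and 48 RPKM and at 73, 80 and 81 with ATRA (0.64, adjusted p = 2.11e-06). RIPK1, a kinase of TNF receptor signalling, was at 5 RPKM in all libraries without ATRA and at 6 in all with it (0.26, adjusted p = 0.000839), a single rounding step, and it lost its call in 11 of the 12 fits that left out a library (adjusted p up to 0.00335). The feedback inhibitor SOCS3, below the filter and named after its values were seen, was listed at 0 in each library without ATRA and at 3 to 4 RPKM in each library with it. CISH of the same list, also below the filter and named afterwards, went the other way. It was at 2 to 3 RPKM without ATRA and at 1 in each library with it. The palbociclib main effect was called for 0 genes in each of these 4 lists (limma), beside 0.575% of all tested genes.

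**Figure D4:**
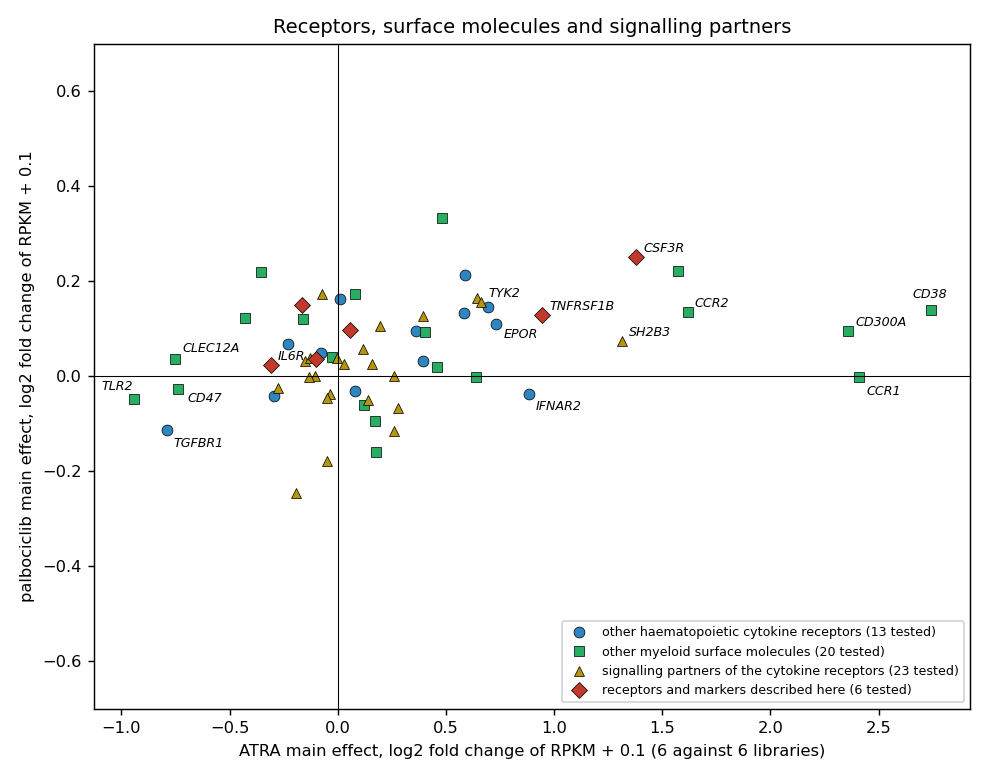
ATRA main effect (horizontal) against palbociclib main effect (vertical), both as log2 fold change of RPKM + 0.1, for the tested genes of the group (red diamonds, 6), other cytokine receptors (blue circles, 13), other myeloid surface molecules (green squares, 20) and signalling partners (yellow triangles, 23). The points spread from -0.94 (TLR2) to 2.74 (CD38) along the ATRA axis, with CSF3R at 1.38 and TNFRSF1B at 0.94, and less along the palbociclib axis.

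The tested genes whose pattern over the 12 libraries was most like that of the 2 called receptors were sought by Pearson correlation of log2(RPKM + 0.1) over all 7820 tested genes. Libraries of a group share a treatment, so the points are not independent and the values are a description. For TNFRSF1B they were CYBB, which encodes the large subunit of the phagocyte NADPH oxidase (r = 0.996), EHD1, an endocytic recycling protein (r = 0.995), and PSAP, the precursor of the saposins (r = 0.994). The mean level of CYBB was 26.7 RPKM in untreated cells, 66 with ATRA, 31 with palbociclib and 70.3 with the combination. For CSF3R they were TRIM14 (r = 0.995), the phosphatase gene PTP4A3 (r = 0.989) and TYK2 (r = 0.988). TRIM14 had means of 13, 23, 14.3 and 24.3 RPKM in the same order of groups.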

How the data were processed

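Per the labels and the study's methods, the authors made poly(A) TruSeq libraries, mapped reads to hg38 with HISAT2 and counted them per gene with HTSeq in its default settings; tool versions and the gene annotation are not given in the sources used here. The deposited values are RPKM that the authors rounded to whole numbers, with replicates kept apart, which makes them a score in steps of 1 and no input for count models. A listed 0 means below that step. Read counts are not in the table, so depth per library is unknown and no counting error is given; the values summed to 358455 to 390247 per library. All 12 columns were assigned to samples by their labels.

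Limma 3.58.1 in R 4.3.3 (tables and plots in Python 3.11.15) fitted 1 mean per group to log2(RPKM + 0.1) in the 12 libraries, using eBayes with a variance trend. The 7820 genes tested had 5 RPKM or more in 3 or more libraries. Fold changes are on that scale. The added 0.1 shrinks those of low genes, but rounding can shift them either way, and those from a listed 0 depend on the 0.1. Benjamini-Hochberg adjustment ran over all tested genes within each of 8 comparisons, and the threshold for a call was an adjusted p of 0.001, two-sided. The main effects average the effect of a drug without and with the other.

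The genes, the lists, the filter and the tests were chosen with earlier results of these data known. All 10 genes are named; from each list, the called genes of largest change in a main effect, at most 4; and the 3 best correlated genes of each called receptor. Exceptions are marked. CD97, an older name of ADGRE5, has no row of its own, which leaves 56 of 57 listed surface molecules. Replicate numbers 1 to 3 recur in each group. Deviations from group means of same-numbered treated libraries correlated in 9 of 9 pairs (r 0.438 to 0.908), and those of untreated with treated libraries exceeded 0.1 in 6 of 9 (0.0453 to 0.367), so the numbers were taken to pair the treated libraries, from the data and not from a label. Alternatives were other filters, pseudocounts and scalings, a threshold of 0.05, the replicate block, no variance trend, the compared groups alone and each library left out. On simulated data only the fit without a block was run, for ATRA against untreated and the ATRA main effect. The simulated libraries were independent, unlike same-numbered libraries here, so the simulation does not cover that dependence.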

Additional observations from a re-analysis of the deposited data

How the results depend on the processing

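The ATRA main effect was called for TNFRSF1B and CSF3R under every alternative run, and no called result changed direction. Uncalled estimates near 0 did when single libraries were left out: the combination against ATRA ranged from -0.09 to 0.22 for TNFRSF1B and from -0.04 to 0.43 for CSF3R, and the departure from additivity from -0.28 to 0.02 and from -0.36 to 0.11 (log2). Counts of the 6 tested genes called in single comparisons moved. For ATRA against untreated, 0 in the main analysis, the count was 2 with a filter at 10 RPKM, 1 with median ratio scaling, 2 at a threshold of 0.05, 2 with the replicate block, 3 with the replicate block at 0.05, and 0 to 2 when single libraries were left out (2 without ATRA replicate 1 or combination replicate 1, and 1 without combination replicate 3). For palbociclib against untreated, 0, it was 1 with the replicate block at 0.05. For the combination against untreated, 2, it was 0 with a filter at 1 RPKM or none, 1 with quantile normalization, 0 with only the groups compared, 3 with the replicate block at 0.05, and 0 to 2 when single libraries were left out (0 without any untreated library or combination replicate 2 or 3, and 1 without replicate 2 or 3 of ATRA or of palbociclib). For the combination against palbociclib, 0, it was 2 at 0.05, 2 with the replicate block, 3 with the block at 0.05, 0 to 1 when single libraries were left out (1 without combination replicate 1), and 1 in a block fit of the 9 treated libraries, chosen after seeing the data. The cause was not tested. At the threshold of 0.001, the block changed no other call of the tested genes than these and the ATRA main effect of IL6R.

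With 3 libraries per group and values in whole RPKM, changes of CSF2RB, CD33 and CSF3R of about 1 RPKM cannot be resolved, and depth is unknown. Among the lists, TNF, IL10RB, FCGR1A, CD300LF and ADGRE5 also lost their call with a filter at 1 RPKM or none, EPOR with no filter, and RIPK1 with median ratio scaling.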
